A study of Mus musculus with 12 samples.

Results

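The 9 genes Igsf11, Fxyd5, Eya1, Scx, Prss23, Ttyh2, Tafa5, Sdc3 and Rflnb were chosen from the 54347 genes of a mouse tumour cell experiment because TGFB2 alone and BMP4 alone each raised them, while both ligands together gave less than the sum of the separate rises on the log2 scale. All 9 were among the 15319 genes that passed the filter on low counts. A sum on the log2 scale is a product of fold changes, so a gene can fall short of it and still reach, or pass, the number of transcripts obtained by adding the ligands' rises. The question was therefore whether the level under both ligands lay at that of the stronger ligand alone, a ceiling, or at the sum of both rises in transcript number. Transcript number here is relative to the library total and is not a count per cell. Unadjusted 95% intervals placed 3 genes, Igsf11, Scx and Ttyh2, below addition and not apart from the stronger ligand, called at a ceiling here. By the same intervals Eya1 and Rflnb lay below the stronger ligand, and Tafa5 and Sdc3 lay above it and not below addition. The stronger ligand is the one with the higher mean. For Eya1 this was BMP4, which was not separated from TGFB2, and neither were both ligands separated from TGFB2. Fxyd5 and Prss23 could not be separated from either the stronger ligand or addition, although Fxyd5 was below addition with the replicate number as a block. After adjustment over all genes in the same fit, no member was called against addition. Only Tafa5 was then called apart from its stronger ligand, BMP4. Both ligands against BMP4 gave a call for 9.22% of all genes, and both against TGFB2 for 0%. Members with TGFB2 as the stronger ligand thus had a comparison in which no gene was called. The working name given to the set, genes at a shared ceiling, was therefore met by at most 3 of 9 members. A gene not separated from the stronger ligand is not shown to equal it. The placement also does not ask whether each ligand alone reaches that level. Igsf11 was lower with BMP4 than with TGFB2 (edgeR adjusted p = 0.0272). Scx and Ttyh2 were not called between the single ligands (edgeR adjusted p = 0.1275 and 0.4163). Of all 340 genes called higher with each ligand alone, 25.9% were placed at a ceiling in the same way, a share near that of the 9.

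The cells were PYMT cells, a mouse line whose name refers to the polyoma middle T antigen, the oncogene used to drive mammary tumours in that model. The series looked for gene programs of dormancy, a lasting arrest of tumour cells, under these ligands. The labels name no other allele, and all groups share this origin. NT cells were untreated. The other groups received TGFB2 at 5 ng/mL, BMP4 at 5 ng/mL, or both (BMP4-TGFB2, called both ligands here) for 3 days. All cells were kept in matrigel and collected 2 days after the medium was changed; whether the new medium held ligand is not stated. Each of the 4 groups had 3 biological replicates. What separated these cultures is not stated, so the spread may be partly technical, and the labels do not say whether the cells are 1 clone. The 12 libraries held 28543100 to 42167800 counts. Summed epithelial markers, all 8 of 8 detected, were at 4472 to 7211 CPM (a gene's counts scaled to the library total, with totals corrected by TMM factors) across libraries. Fibroblast markers summed to 5.19 to 13.6 CPM in NT, 19.8 to 32.0 with TGFB2, 7.43 to 21.5 with BMP4 and 15.0 to 29.5 with both, with none of the 8 at 0 in all libraries. The 7 leukocyte markers summed to 0.964 to 1.98 CPM in NT, 3.64 to 7.23 with TGFB2, 1.80 to 4.61 with BMP4 and 4.61 to 8.47 with both. Across libraries Csf1r ran from 0.157 to 7.07 CPM and Ptprc from 0.157 to 0.915. The 5 basal markers summed to 174 to 412 CPM in NT, 350 to 583 with TGFB2, 999 to 1308 with BMP4 and 443 to 954 with both. Krt14 alone was at 169 to 1300 CPM, the only 1 of the 5 called with BMP4, while Krt5 was at 0.0850 to 1.21 and Trp63 at 0 to 1.62. The part of these cell type markers in the rises described here was not tested. In bulk RNA, fewer expressing cells and less RNA per cell cannot be told apart.

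TGFB2 and BMP4 are secreted ligands of one superfamily. Each assembles a complex of type I and type II receptor kinases, which phosphorylate receptor SMAD proteins: SMAD2 and SMAD3 after TGFB2, SMAD1, SMAD5 and SMAD9 after BMP4. Both kinds bind the shared partner SMAD4 and enter the nucleus, where they act on DNA with other factors, and inhibitory SMADs and secreted antagonists dampen the signal. In mammary epithelium this pathway is known for growth arrest, matrix production and changes of cell shape.

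RefSeq promoter windows on GRCm38.p6 were found for 7 of the 9 genes, all but Eya1 and Scx. The 250 bases before the start are shown for the 4 genes whose RefSeq start is also the outer start of the GENCODE M21 gene. Under both ligands those genes were above the stronger ligand (Tafa5, Sdc3), below it (Rflnb) or not separated from either reference (Prss23). None of the genes placed at a ceiling is among them. Capitals mark the SMAD box CAGAC and the GC-rich SMAD motifs GGCGC and GGCCG on either strand, and marked stretches can overlap. The windows are at chr15:87544049-87544298 (plus strand) for Tafa5, chr4:130792287-130792536 (plus strand) for Sdc3, chr11:76027783-76028032 (minus strand) for Rflnb and chr7:89527188-89527437 (minus strand) for Prss23.
Tafa5: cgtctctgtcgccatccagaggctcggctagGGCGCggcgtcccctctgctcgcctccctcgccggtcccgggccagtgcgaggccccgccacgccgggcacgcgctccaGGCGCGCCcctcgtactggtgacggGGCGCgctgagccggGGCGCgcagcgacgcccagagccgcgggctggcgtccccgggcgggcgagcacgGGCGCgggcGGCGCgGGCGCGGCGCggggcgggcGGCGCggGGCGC
Sdc3: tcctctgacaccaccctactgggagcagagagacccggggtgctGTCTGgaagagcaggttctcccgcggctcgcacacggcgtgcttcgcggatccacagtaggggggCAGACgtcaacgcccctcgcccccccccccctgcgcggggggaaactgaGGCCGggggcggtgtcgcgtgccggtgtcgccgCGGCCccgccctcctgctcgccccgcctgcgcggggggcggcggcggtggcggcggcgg
Rflnb: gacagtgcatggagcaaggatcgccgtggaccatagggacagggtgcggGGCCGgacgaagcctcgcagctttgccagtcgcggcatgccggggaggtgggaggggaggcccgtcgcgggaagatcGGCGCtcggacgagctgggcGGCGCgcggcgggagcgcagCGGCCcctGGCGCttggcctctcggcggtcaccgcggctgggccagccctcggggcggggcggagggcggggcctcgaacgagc
Prss23: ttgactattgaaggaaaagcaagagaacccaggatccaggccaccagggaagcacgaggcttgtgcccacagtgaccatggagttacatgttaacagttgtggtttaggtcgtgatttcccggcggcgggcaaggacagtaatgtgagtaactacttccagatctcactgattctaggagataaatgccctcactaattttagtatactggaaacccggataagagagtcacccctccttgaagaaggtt
The Tafa5 window, at 83.6% G and C, held GGCGC 11 times and no CAGAC. The Sdc3 window, at 76.4%, held CAGAC 2 times and GGCCG 2 times. The Rflnb window, at 76%, held GGCGC 3 times and GGCCG 2 times. The Prss23 window, at 47.6%, held none of these motifs. Of the other matched windows, that of Fxyd5 held CAGAC 2 times, that of Igsf11 GGCGC and GGCCG 1 time each, and that of Ttyh2 none. None of the 7 windows held the palindrome GTCTAGAC or the AP-1 site TGACTCA. Over 27025 promoter windows of the same length, with a median G and C content of 52%, CAGAC was present in 42.1%, GGCGC in 32.1%, GGCCG in 30.3%, the palindrome in 0.174% and the AP-1 site in 4.43%. A match is a description of the letters and not a measured binding site.

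In the fit that chose them, all 9 genes were higher with TGFB2 than in NT, where 11.3% of all genes were called higher, and all 9 were higher with BMP4 than in NT, where 3.19% were. All 9 were below the log2 sum, a call made for 0.104% of all genes. All 9 were higher with both ligands than in NT as well, by log2 1.15 (Rflnb) to 7.14 (Tafa5), where 13.3% of all genes were called higher. The first 3 of these counts are the choice itself and support nothing. The largest adjusted p among the members for that log2 interaction was 0.0300, for Sdc3 and Rflnb. The threshold does not set the members apart, as 7 other genes were called below the log2 sum, among them Pmepa1 and Igfbp7 at 0.0249. Nearest outside the threshold was Moxd1 at 0.0527, followed by genes tied at 0.0662, among them Depdc7, Smad6 and Skil. All adjusted p-values are from the quasi-likelihood test of edgeR with Benjamini-Hochberg adjustment over all genes tested, unless another tool is named. The comparisons that follow (both ligands against each single ligand, and against addition) were not named by the rule but share its libraries, so their intervals and p-values describe size against replicate spread and are not independent of the choice. The addition level is TGFB2 plus BMP4 minus NT, on the linear scale of CPM. Addition of transcripts per cell would also need equal RNA per cell in the 4 groups, which is not given.

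**Figure D1:**
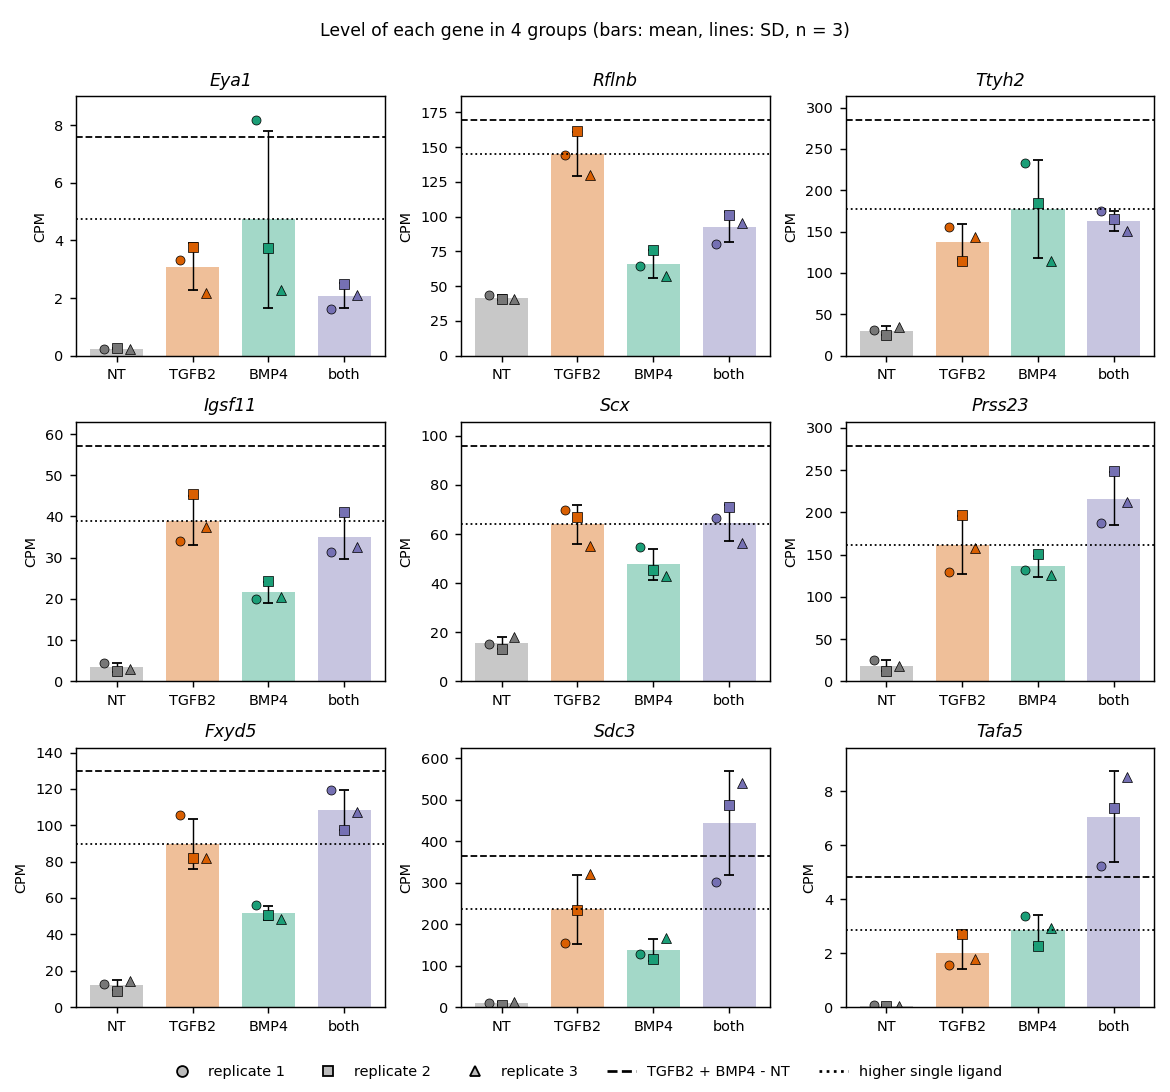
Level of each gene in CPM (linear axis from 0) in the 4 groups, with 1 point per library, bars for the mean and lines for the SD (n = 3); the dashed line is addition and the dotted line the mean of the higher single ligand. Libraries given both ligands sit near the dotted line for Igsf11, Scx and Ttyh2 and all below it for Rflnb and Eya1. They are all above it for Tafa5, Sdc3, Fxyd5 and Prss23.

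Igsf11 encodes an adhesion molecule of the immunoglobulin superfamily (ENSMUSG00000022790.14, GRCm38 chromosome 16, 38892671 to 39027159, plus strand). It was at 4.49, 2.52 and 3.12 CPM in NT replicates 1, 2 and 3, at 34.0, 45.5 and 37.4 with TGFB2, at 20.0, 24.4 and 20.4 with BMP4 and at 31.3, 41.0 and 32.6 with both. Every library given both ligands was above every BMP4 library, and 2 of the 3 were just below the range of the TGFB2 libraries. Over all genes, libraries of both ligands did not overlap with those of BMP4 in 28.3% and with those of TGFB2 in 6.77%. These shares apply to the other members too. For TGFB2 against BMP4 the share was not counted. Adding the 2 rises would give 57.2 CPM and multiplying them 249 CPM, against a mean of 35.0 ± 5.29 CPM (SD, n = 3) with both. The ratio to addition was 0.612 (95% interval 0.463 to 0.808, unadjusted p = 0.00244 and adjusted p = 0.52 from the Wald test on the edgeR fit). The ratio to TGFB2 alone was 0.897 (0.658 to 1.22). Within replicate numbers 1, 2 and 3 the ratio to addition was 0.633, 0.609 and 0.596.

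Fxyd5 encodes dysadherin, a small membrane protein that modulates the sodium pump and lowers cell adhesion (ENSMUSG00000009687.14, chromosome 7, 31032722 to 31042481, minus strand). It was at 12.8, 8.93 and 14.1 CPM in NT, at 106, 81.9 and 82.1 with TGFB2, at 55.9, 50.5 and 48.5 with BMP4 and at 119, 97.4 and 108 with both. The BMP4 libraries were all below those of TGFB2 and of both ligands, while the latter groups overlapped. Both ligands gave a mean of 108 ± 11.0 CPM (SD, n = 3) against an addition level of 129.6 CPM, a ratio of 0.834 (0.660 to 1.05, unadjusted p = 0.116 from the Wald test on the edgeR fit). The ratio to TGFB2 alone was 1.20 (0.930 to 1.56). Both intervals held 1. With the replicate number as a block, the ratio to addition was the same, 0.834, with an unadjusted p of 0.0428 from the edgeR fit, which places Fxyd5 below addition and not apart from TGFB2. That block also pairs NT by number, which the NT and TGFB2 libraries did not bear out in every number. Within replicate numbers all 3 ratios to addition were under 1.

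Ttyh2 encodes a membrane protein of the tweety family (ENSMUSG00000034714.9, chromosome 11, 114675431 to 114720977, plus strand). It was at 31.2, 24.5 and 34.9 CPM in NT, at 155 (replicate 1), 115 and 144 with TGFB2, at 233, 185 and 114 with BMP4 and at 175, 165 and 151 with both. BMP4 gave the higher mean but spread widely, from below every library given both ligands to above all of them. On average both ligands gave 163 ± 12.1 CPM (SD, n = 3), with an addition level of 285 CPM. The ratio to addition was 0.573 (0.419 to 0.784, unadjusted p = 0.00234 and adjusted p = 0.506 from the Wald test on the edgeR fit), and the ratio to BMP4 alone 0.921 (0.651 to 1.30). Without BMP4 replicate 1 the log2 difference from BMP4 changed from -0.12 to 0.14, and the ratio to addition over all alternatives ran from 0.515 to 0.636.

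Sdc3 encodes syndecan 3, a cell surface proteoglycan whose heparan sulfate chains bind growth factors (ENSMUSG00000025743.14, chromosome 4, 130792537 to 130826319, plus strand). It was at 8.70, 5.98 and 12.1 CPM in NT, at 153, 233 and 321 with TGFB2, at 129, 117 and 167 with BMP4 and at 303, 486 and 541 with both. Within each replicate number the library given both ligands was the highest of the 4, although TGFB2 replicate 3 was above replicate 1 of both ligands. The mean with both, 443 ± 125 CPM (SD, n = 3), stood at 1.22 times addition (0.802 to 1.85, unadjusted p = 0.325 from the Wald test on the edgeR fit) and at 1.88 times TGFB2 alone (1.17 to 3.02, unadjusted p = 0.0137 but adjusted p = 1 over all genes, edgeR). Adding the rises would give 364 CPM and multiplying them 3640.3 CPM, so Sdc3 fell short of the log2 sum while its mean was above addition. The interval against TGFB2 held 1 without TGFB2 replicate 1, without both-ligand replicate 3, and without all libraries of replicate 2 (ratios 1.59, 1.66 and 1.78). On the minus strand, 2 antisense genes that did not pass the filter, Gm12970 and Gm26716, share 48 and 415 exon bases with Sdc3, and the deposited fields give the libraries as unstranded.

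Prss23 encodes a secreted serine protease (ENSMUSG00000039405.7, chromosome 7, 89507783 to 89527187, minus strand). It was at 25.5, 12.4 and 17.9 CPM in NT, at 129, 197 and 157 with TGFB2, at 132, 150.1 and 126 with BMP4 and at 187, 249 and 212 with both. The library given both ligands was the highest within each replicate number and above every BMP4 library, while its range overlapped that of the TGFB2 libraries. The mean with both was 216 ± 31.2 CPM (SD, n = 3), at 0.775 of addition (0.566 to 1.06, unadjusted p = 0.104 from the Wald test on the edgeR fit) and 1.34 times TGFB2 alone (0.939 to 1.91). Its mean lay between the references, and neither could be told apart from it. The larger rise was held and 46.7% of the smaller added, where 0% is the level of the stronger ligand and 100% is addition. The antisense gene Prss23os, which shares 864 exon bases, had 0.143% of its level.

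Tafa5, listed as Fam19a5 in GENCODE M21, encodes a secreted chemokine-like peptide (ENSMUSG00000054863.9, chromosome 15, 87544299 to 87759364, plus strand). It was at 0.078, 0.028 and 0.030 CPM in NT, that is 3, 1 and 1 counts, at 1.56, 2.69 and 1.77 with TGFB2, at 3.37, 2.28 and 2.92 with BMP4 and at 5.22, 7.38 and 8.54 with both. Every library given both ligands was above every library of the other groups. Of all genes, 6.77% had no overlap between both ligands and TGFB2, and 28.3% none between both ligands and BMP4, in either direction. From summed counts, the ratio to NT was 41.8 with TGFB2 (exact 95% interval 17.6 to 130, covering counting error only), 61.8 with BMP4 (26.2 to 192) and 148 with both (63.2 to 458). The mean with both, 7.05 ± 1.69 CPM (SD, n = 3), was 1.46 times addition (0.955 to 2.24, unadjusted p = 0.0758 from the Wald test on the edgeR fit) and 2.47 times BMP4 alone (1.51 to 4.02, edgeR adjusted p = 0.0297). Addition would give 4.82 CPM and the product of the rises 126 CPM. With NT this near 0, the log2 interaction of Tafa5 depended on the scale: -4.02 from counts, and -2.08 with limma on log2(TPM + 0.1).

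Scx encodes scleraxis, a basic helix-loop-helix transcription factor known from tendon progenitors (ENSMUSG00000034161.8, chromosome 15, 76457452 to 76459458, plus strand). It was at 15.3, 13.3 and 18.0 CPM in NT, at 69.7, 67.0 and 55.1 with TGFB2, at 54.6, 45.3 and 43.0 with BMP4 and at 66.4, 70.9 and 56.3 with both. The both-ligand libraries overlapped the TGFB2 libraries and stayed above all BMP4 libraries. The mean with both was 64.5 ± 7.47 CPM (SD, n = 3), at 0.672 of the addition level of 96.0 CPM (0.542 to 0.834, unadjusted p = 0.00181 and adjusted p = 0.452 from the Wald test on the edgeR fit) and 1.01 times TGFB2 alone (0.800 to 1.27). Scx took on 1.89% of the smaller rise, the value nearest to the level of the stronger ligand among the 9. Scx lies inside Bop1, a gene on the opposite strand at 106.8 CPM on average (223% of Scx), with 0 shared exon bases. Of the 4 tendon markers, Tnmd was at 0 to 0.22 CPM across libraries, Mkx at 12.6 to 22.5, Thbs4 at 0.538 to 2.05 and Fmod at 0.0949 to 2.35. Their sum ran from 15.0 to 22.4 CPM in NT, 17.8 to 26.2 with TGFB2, 15.6 to 19.2 with BMP4 and 18.5 to 22.1 with both.

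Eya1 encodes a transcriptional coactivator with phosphatase activity (ENSMUSG00000025932.14, chromosome 1, 14168954 to 14310235, minus strand). It was at 0.235, 0.255 and 0.240 CPM in NT, at 3.31, 3.78 and 2.19 with TGFB2, at 8.18, 3.73 and 2.29 with BMP4 and at 1.63, 2.50 and 2.09 with both. Within each replicate number, both ligands gave less than either alone, although the groups overlapped. Together the ligands gave 2.07 ± 0.435 CPM (SD, n = 3), at 0.273 of addition (0.154 to 0.482, unadjusted p = 0.000354 and adjusted p = 0.223 from the Wald test on the edgeR fit). The ratio to BMP4 alone was 0.437 (0.230 to 0.830, edgeR adjusted p = 0.112). The size of this shortfall rested on BMP4 replicate 1. Without that library the ratio to BMP4 was 0.691 (unadjusted p = 0.168 from the edgeR fit across all genes), and the ratio to addition 0.353. With all libraries, BMP4 and TGFB2 alone were not separated (log2 0.62, edgeR unadjusted p = 0.17). Against TGFB2 alone, both ligands stood at log2 -0.58 (edgeR unadjusted p = 0.199).

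Rflnb encodes refilin B, a partner of filamin A in organising actin bundles (ENSMUSG00000020846.6, chromosome 11, 76019194 to 76027782, minus strand). It was at 43.9, 40.6 and 40.4 CPM in NT, at 145, 162 and 129.8 with TGFB2, at 64.4, 76.3 and 57.0 with BMP4 and at 80.3, 101 and 95.7 with both. None of the 4 groups overlapped, and both ligands together stood between BMP4 alone and TGFB2 alone. Its mean with both ligands was 92.5 ± 10.9 CPM (SD, n = 3), at 0.545 of addition (0.444 to 0.670, unadjusted p = 3.93e-05 and adjusted p = 0.094 from the Wald test on the edgeR fit) and 0.636 of TGFB2 alone (0.517 to 0.784, edgeR adjusted p = 0.427). Libraries of both ligands do not overlap with those of TGFB2 in 6.77% of all genes, nor with those of BMP4 in 28.3%. Rflnb was the member with the smallest response to BMP4, a log2 rise of 0.66, whose call was lost in 7 of 22 alternatives (edgeR adjusted p up to 0.332).

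**Figure D2:**
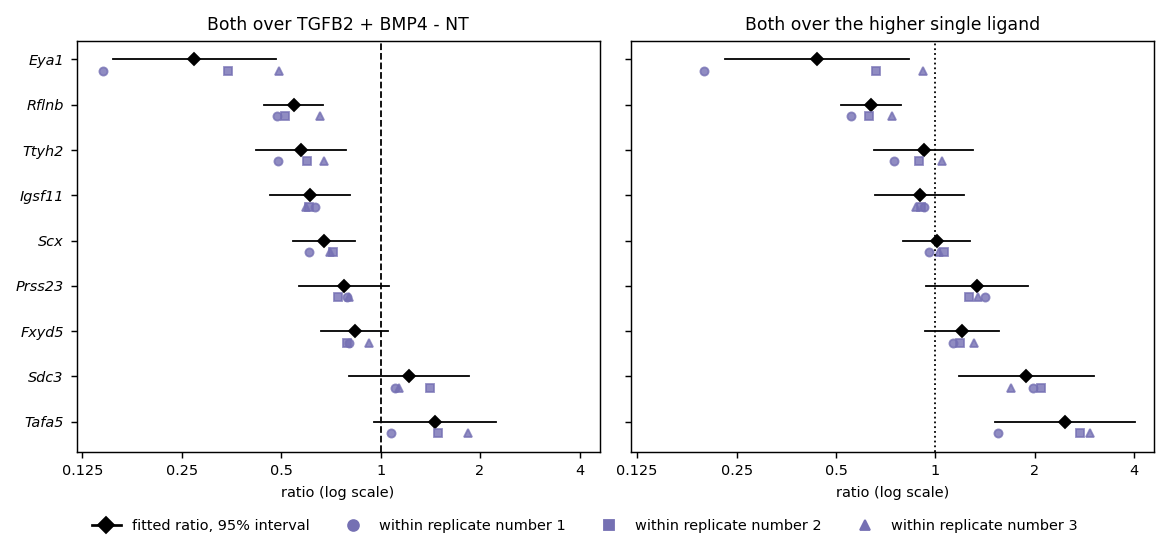
Ratio of the level under both ligands to addition (left) and to the higher single ligand (right) on a log axis, with the fitted ratio and its 95% interval as diamonds and lines and the ratio within each replicate number as smaller symbols. On the right, the fitted ratio uses the ligand with the higher mean. The smaller symbols there use the higher of the TGFB2 and BMP4 libraries of that number. The 7 genes from Eya1 to Fxyd5 are below addition within every replicate number, and Sdc3 and Tafa5 above it within every number.

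By replicate number, the ratio of both ligands to addition spread least for Igsf11 and for Prss23 (0.793, 0.744 and 0.800 in replicates 1, 2 and 3). Scx gave 0.609, 0.716 and 0.703, and Fxyd5 0.802, 0.789 and 0.923. The 3 other genes below addition had their lowest ratio in replicate 1: 0.489, 0.600 and 0.676 for Ttyh2, 0.487, 0.514 and 0.654 for Rflnb, and 0.145, 0.344 and 0.494 for Eya1. In Eya1 and Ttyh2 the BMP4 library of replicate 1 was also the highest of its group. Tafa5, above addition, gave 1.07, 1.49 and 1.83, and Sdc3 gave 1.11, 1.41 and 1.14.

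Within a replicate number, the higher single ligand is the higher of its TGFB2 and BMP4 libraries. This was not the ligand with the higher mean for Ttyh2 in replicate 3, Eya1 and Tafa5 in replicate 2, and Prss23 in replicate 1. Against this reference, the ratios with both ligands were on both sides of 1 for Scx (0.953, 1.06 and 1.02) and Ttyh2 (0.749, 0.892 and 1.05). They were under 1 in each replicate number for Igsf11 (0.922, 0.901 and 0.870), Rflnb (0.555, 0.628 and 0.737) and Eya1 (0.199, 0.660 and 0.915). The same held for 43.2% of all genes and for 17.6% of the 340 genes called higher with each ligand alone. Above 1 in each number were Fxyd5 (1.13, 1.19 and 1.31), Prss23 (1.42, 1.26 and 1.35), Sdc3 (1.97, 2.09 and 1.69) and Tafa5 (1.55, 2.74 and 2.93). The median over the 9 genes of the share of the smaller rise that was added was -8.37%, 12.2% and 8.68% in replicates 1, 2 and 3. Around a median near 0%, members ran from -218% (Rflnb, below the stronger ligand by more than the rise with BMP4) to 213% (Tafa5).

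Across the 9 genes, addition was undershot within all 3 replicate numbers by 7 and passed within all 3 by 2. Of the 340 genes called higher with each ligand alone, 72.4% were below addition in all 3 numbers, as were 21.6% of all genes. The choice of the 340 used the libraries that give the addition level. No member passed the test against addition over the 14496 genes for which it was defined, where 0.0138% of genes were called. At an unadjusted p under 0.05 in that Wald test there were 5 members and 701 of these 14496 genes, a share close to the threshold itself. The 2 genes called by edgeR, Abcc3 (log2 ratio -4.24) and Krt15 (-6.91), rose with BMP4 alone and are no members. DESeq2 called Eya1 (adjusted p = 0.00197), Rflnb (1.37e-05) and Scx (0.0484) below addition. edgeR without a filter on low counts called Eya1 (adjusted p = 0.0146), Rflnb (0.00458) and Ttyh2 (0.0298).

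What BMP4 added on top of TGFB2 was not called for any member or any of the 15319 genes by edgeR, with a called share of 0%. At an unadjusted p under 0.05 there were 516 of these 15319 genes, a share below the threshold itself. Members among them were 3 (Tafa5 and Sdc3 higher, Rflnb lower). DESeq2 called 51 genes, among them Tafa5 (log2 1.81, adjusted p = 7.21e-05) and Rflnb (-0.66, adjusted p = 0.0119), and edgeR with the replicate number as a block called 6 genes and no member.

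What TGFB2 added on top of BMP4 was called for 4 members, all higher: Fxyd5 (log2 1.07 ± 0.17 SE, adjusted p = 0.00337), Sdc3 (1.69 ± 0.31, 0.00765), Tafa5 (1.30 ± 0.32, 0.0297) and Rflnb (0.49 ± 0.14, 0.0483). Of all genes, 4.24% were called higher and 9.22% in either direction. With the replicate number as a block, which these groups share, Igsf11 (0.69, adjusted p = 0.027) and Scx (0.44, adjusted p = 0.0477) were called too, and the count over all genes went from 1412 to 3476. Igsf11 was called under 7 of 22 alternatives, among them DESeq2 (adjusted p = 0.0165) and limma voom (0.0308). In edgeR, Prss23 was called without a filter on low counts (adjusted p = 0.0367) and without NT replicate 1 (0.0472). Eya1 was called lower without BMP4 replicate 3 (edgeR adjusted p = 0.0357). Without the libraries of replicate 2, the adjusted p of Fxyd5 was 0.0509 and that of Sdc3 0.165, and without those of replicate 3 that of Fxyd5 was 0.0556. Tafa5 lost its call without any 1 BMP4 library, without both-ligand replicate 2 or 3, and without the libraries of replicate 2 or of replicate 3 (adjusted p from 0.0539 to 0.301). Rflnb lost its call under 15 of 22 alternatives, with adjusted p up to 0.349.

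The ligands alone differed for Igsf11, Fxyd5 and Rflnb, which were lower with BMP4 than with TGFB2 by log2 values of -0.85 ± 0.20, -0.80 ± 0.17 and -1.14 ± 0.14 (SE; adjusted p = 0.0272, 0.0149 and 0.000795). Of all genes, 3.67% were called lower. With the replicate block Sdc3 was called as well (-0.73, adjusted p = 0.0284), and the count over all genes went from 1200 to 2999. Igsf11 lost its call without any 1 BMP4 library, without TGFB2 replicate 2 or 3, without the libraries of replicate 2 or 3, and with limma on log2 TPM (adjusted p = 0.0751), with adjusted p up to 0.225. Fxyd5 lost it without TGFB2 replicate 1, BMP4 replicate 2, or the libraries of replicate 1, 2 or 3, with adjusted p up to 0.1145. edgeR without a filter on low counts also called Sdc3 (-0.78, adjusted p = 0.0405). The other 5 genes were not called, and the mean was higher with BMP4 for Ttyh2, Eya1 and Tafa5 and higher with TGFB2 for Scx and Prss23.

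The placement of Igsf11, Scx and Ttyh2 at a ceiling, with intervals that held the stronger ligand and not addition, was the same under all 22 alternatives for which a p could be had. That of Rflnb below the stronger ligand and below addition was also the same under all 22. Eya1 kept its placement in 18, Fxyd5 in 21 (all but the replicate block), Prss23 in 18, Sdc3 in 19 and Tafa5 in 18. Prss23 was above TGFB2 at an unadjusted p under 0.05 in its 4 others: without a filter on low counts, and without NT replicate 1, NT replicate 2 or TGFB2 replicate 2 (ratios 1.34, 1.34, 1.34 and 1.51). It was also below addition without the filter and without NT replicate 1 (unadjusted p = 0.049 and 0.0407 from the Wald test on the edgeR fit). In the 4 others Tafa5 was above addition at an unadjusted p under 0.05, with ratios of 1.44 with limma voom, 1.66 without the libraries of replicate 1, 1.57 without TGFB2 replicate 2 and 1.65 without both-ligand replicate 1. In the 4 others Eya1 was not separated from BMP4 alone.

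The genes with the most similar profile over the 12 libraries, by Pearson correlation of log2 CPM with the mean of the members' standardised profiles, were Rab11a (0.979), Pmepa1 (0.978), Skil (0.977), Dlc1 (0.977) and Tnfrsf23 (0.974). Rab11a encodes a GTPase of recycling endosomes, and Skil and Pmepa1 encode feedback inhibitors of SMAD signalling. Pmepa1 was at 159 CPM in NT, 748 with TGFB2, 436 with BMP4 and 743 with both. Correlations between members ran from 0.683 to 0.984 with a median of 0.930 over 36 pairs, and Rflnb had the lowest correlation with the mean profile (0.843). These points share libraries and groups, so the values are descriptions.

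In all, 340 genes were called higher with each ligand alone, 2.22% of those tested, and all 340 were below the log2 sum, 4.71% of them by a called difference. The 9 members had a median log2 ratio to addition of -0.57 (range -1.87 to 0.55), the other 331 genes one of -0.28 (range -2.28 to 1.39) and all genes -0.01. By the same intervals, 63.2% of the 340 could not be separated from either reference, 25.9% were at a ceiling and below addition, 7.65% were above the ceiling and held addition, and 2.65% held neither; the other 2 genes had NT fitted at 0 and no value for addition. Of the 340, 87.6% were below addition in the fitted levels, with no test, and 72.4% were so within all 3 replicate numbers, against 51.2% and 21.6% of all genes. The 340 were chosen for high TGFB2 and BMP4 libraries over NT, and the same libraries give the addition level and the log2 sum. Falling below either is therefore not independent of that choice. Below the higher single ligand were 31.5% of the 340 in the fitted levels, as were Eya1, Igsf11, Rflnb and Ttyh2 among the members, and 17.6% within all 3 numbers. Of all genes, 43.2% were below it within all 3 numbers. Members fell across this range: from the lowest ratio to addition, Eya1 ranked 3, Rflnb 23, Ttyh2 30, Igsf11 41, Scx 73, Prss23 135, Fxyd5 189, Sdc3 322 and Tafa5 334. Among genes with a mean log2 CPM of 2 or more, members and predicted genes left out, those that stood lowest were Ccn5, a matricellular gene at 11.3 CPM with TGFB2, 24.8 with BMP4 and 7.11 with both, Pappa and Sod3 (ranks 1, 5 and 12). Those that stood highest were Whrn, at 40.3, 9.64 and 85.1 CPM, Chst11, an enzyme of chondroitin sulfate synthesis, and Mab21l4 (ranks 337, 336 and 332).

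**Figure D3:**
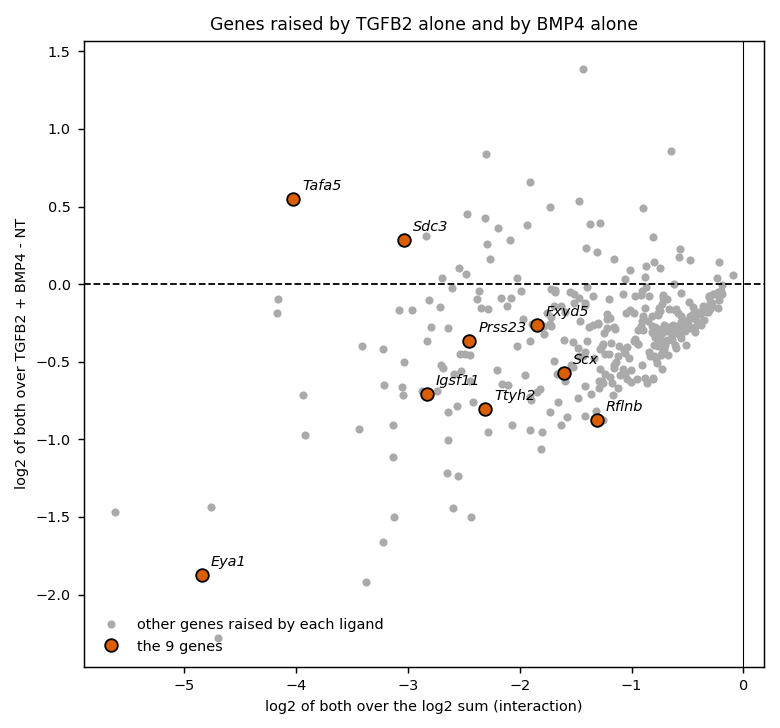
Log2 ratio of both ligands to addition (vertical) against the log2 interaction (horizontal) for the 340 genes raised by each ligand alone, with the 9 genes in orange. All points lie left of 0 on the horizontal axis, while Tafa5 and Sdc3 lie above the dashed line of addition and the other 7 members below it.

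Of 33 genes of the same families, 21 passed the filter; 5 rose and 2 fell with TGFB2, 4 rose and 1 fell with BMP4, and none was called for the log2 interaction. Between genes, levels are compared in TPM, which is scaled for length. Sdc1, the syndecan of epithelium, rose with TGFB2 (log2 1.94) and with BMP4 (1.86): its mean TPM was 278 in NT, 1064 with TGFB2, 971 with BMP4 and 1659 with both. Sdc3 went from 2.79 TPM in NT to 164 with both and so stayed below Sdc1 in all groups. Sdc4 was at 362 TPM in NT and 217 with both, with no call for TGFB2 or BMP4 alone.

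Eya2, the EYA gene with the highest TPM in NT, moved opposite to Eya1. It fell by 3.10 (log2) with TGFB2 and by 1.76 with BMP4, from a mean of 69.9 TPM in NT to 3.76 with both. Eya4 rose with both single ligands (1.68 and 1.79). Eya1 itself did not pass a mean of 2.02 TPM in any group. Fxyd3 was at 345 TPM in NT and fell with TGFB2 (log2 -1.11), where Fxyd5 rose to 231 TPM from 30.2. Rflna, the other refilin, rose with TGFB2 only among the single ligands tested (log2 5.22, against 0.05 ± 1.06 SE with BMP4, a difference not tested here), and stayed at 1.65 TPM against 64.7 of Rflnb. The protease Htra1 rose with both ligands (0.79 and 1.69), and Prss22 rose with TGFB2 (2.52).

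**Figure D4:**
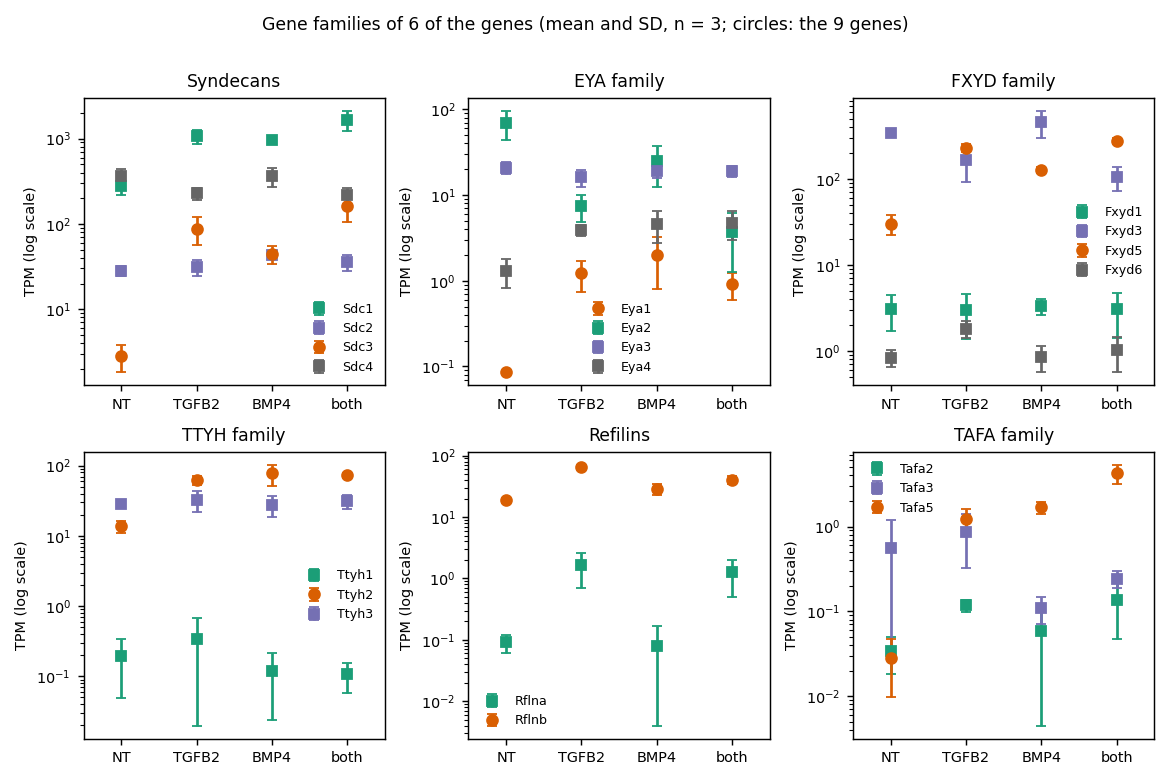
Mean TPM and SD (n = 3) on a log axis in the 4 groups for the families of 6 of the genes, circles for the members and squares for relatives; where the SD exceeds the mean the lower line stops at 5% of the mean. Sdc3 and Eya1 have the lowest level of the genes plotted for their families in NT, and Eya2 falls where Eya1 rises.

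Known target and pathway lists give the setting. Of 36 genes of the TGFB SMAD2/3 response, 23 rose and 0 fell with TGFB2, 11 rose and 1 fell with BMP4, and 1, Pmepa1, was called below the log2 sum. Their median log2 ratio to addition was -0.20. Of 28 tested genes of the BMP SMAD1/5 response, 8 rose and 2 fell with TGFB2, 16 rose and 0 fell with BMP4, and none was called for the interaction, with a median ratio to addition of -0.58. Smad6 and Smad7, the inhibitory SMADs, rose with each ligand: Smad7 by 1.63 and 1.57, Smad6 by 1.48 and 2.81, with log2 interactions of -1.05 and -1.85 (adjusted p = 0.0716 and 0.0662). Of 27 tested receptor and SMAD genes, 13 rose and 3 fell with TGFB2, and 5 rose and 1 fell with BMP4. The receptor gene Tgfbr1 rose with each (1.21 and 0.99). Of 29 tested partners of the member proteins, 4 rose and 1 fell with TGFB2 and 1 rose with BMP4. That gene was Gpc1, a glypican that carries heparan sulfate as Sdc3 does, with rises of 4.08 and 1.68.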

How the data were processed

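Poly(A)-enriched RNA of 12 libraries was sequenced as paired reads, and the deposited metadata give 1 batch, unstranded libraries and passed quality for all. The submitters' processing notes name bcl2fastq 2.17, STAR 2.7.5b, Salmon 1.2.1 and GRCm38.p6, with no roles. The authors deposited estimated counts per gene, of which 82.9% were whole, and these were rounded here. A deposited normalized signal table (counts over size factors of 0.844 to 1.24) was used only for its factors. TPM deposited by the authors, scaled for length and depth, served for levels between genes and as an alternative unit.

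Genes passing filterByExpr (minimum count 10; 15319 genes, 99.95% of counts) were fitted with edgeR 4.0.16 in R 4.3.3 by group over all libraries, with TMM factors of 0.971 to 1.03 and a common biological coefficient of variation of 0.299. The threshold was an adjusted p of 0.05. Addition was tested on the same fit by a two-sided Wald test of the log2 ratio of both ligands to TGFB2 plus BMP4 minus NT, with a delta-method SE and t at the moderated degrees of freedom. Intervals are 95% and unadjusted. The script was tested on simulated counts. limma 3.58.1 and DESeq2 1.42.0 were alternatives. No 2 libraries agreed within sampling noise (lowest chi-square per degree of freedom 17.9).

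The members and gene lists were chosen with earlier results of these data known. Named genes were the members, the 5 best correlated genes (log2 CPM of 2 or more on average), the 3 lowest and 3 highest ratios to addition among genes raised by each ligand under the same limit, members and predicted genes left out, and from each list those with the smallest interaction p. Relatives in the text were chosen after their values were seen. To see whether replicate numbers pair libraries, the departures from the group mean of libraries with one number were correlated over genes. Every number gave more than 0.1 for NT and BMP4 (lowest 0.162), TGFB2 and BMP4 (0.15), TGFB2 and both (0.229) and BMP4 and both (0.146), but not for NT with TGFB2 (0.0805) or with both (0.0256). The numbers, given by the titles, could be read as pairs for the former only. The block fits and the ratios to addition within a number also take in NT. For NT with TGFB2 and with both they therefore use a pairing that these correlations do not bear out.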

Additional observations from a re-analysis of the deposited data

Results flagged for a closer look

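The log2 change with TGFB2 was smaller in cells also given BMP4 than in cells not given it, by a test of the difference itself (the log2 interaction in edgeR, adjusted p under 0.05), for 16 genes that each ligand alone had raised. For the 9 genes of the report this is the measure they were chosen by: the differences were -2.83 for Igsf11, -1.85 for Fxyd5, -4.84 for Eya1, -1.60 for Scx, -2.45 for Prss23, -2.31 for Ttyh2, -4.02 for Tafa5, -3.04 for Sdc3 and -1.31 for Rflnb. The other 7 genes were Pmepa1 at -1.47, Igfbp7 at -1.96, Clu at -1.68, Adssl1 at -1.31, Ccn5 at -4.70, Bmp1 at -0.95 and Nuak1 at -1.63. On the scale of transcript number these 7 spread as the 9 do. Ccn5 had a log2 ratio to addition of -2.28, Igfbp7 of -0.58, Pmepa1 of -0.47 and Bmp1 of -0.30, while Nuak1 stood at -0.14, Clu at -0.05 and Adssl1 at 0.21. None of the 7 was called against addition by edgeR.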

How the results depend on the processing

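All 207 values of the 9 genes against addition kept their direction, over 23 alternatives. Of 1593 member values under all alternatives, 1413 kept direction and call, 149 lost a call, 22 gained one and 9 changed sign. The sign changes concern Scx against TGFB2 (-0.011 with limma on log2 TPM, -0.083 to 0.094 on leaving out libraries), Ttyh2 against BMP4 (-0.35 to 0.14) and Eya1 with BMP4 against TGFB2 (-0.052 to 0.94). With DESeq2, calls numbered 1569 for BMP4 against NT, 298 for the interaction, 51 for both against TGFB2 (2 members), 2219 for both against BMP4, 1977 for BMP4 against TGFB2 and 79 against addition (3 members). limma voom gave 12 interaction calls and 0 against addition. With no filter there were 173 interaction calls, 23 for both against TGFB2 and 66 against addition (3 members). limma on log2 TPM gave 13 interaction calls (5 members), 2 for both against TGFB2 and 1 against addition. The replicate block gave 5799, 2356 and 6342 calls for TGFB2, BMP4 and both against NT, 280 for the interaction, 6 for both against TGFB2, 3476 for both against BMP4, 2999 for BMP4 against TGFB2 and 15 against addition (1 member, Rflnb, adjusted p = 0.0336 in edgeR), and 0 with the ratio formed within each number. Besides this call and those of Igsf11, Scx and Sdc3 given in the report, the block changed no call of a member.

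Leaving out libraries gave 919 to 4038 calls for TGFB2 against NT (9 members throughout), 15 to 758 for BMP4 against NT (4 to 9 members) and 1253 to 4705 for both against NT. It gave 0 to 27 for the interaction (0 to 8 members), 0 to 1 for both against TGFB2 (0 members), 130 to 1634 for both against BMP4 (0 to 6 members), 107 to 1352 for BMP4 against TGFB2 (1 to 3 members) and 0 to 3 against addition (0 members). The median share of the smaller rise was 1.89%, and -11.8% to 14.7% on leaving out libraries. The cause of these changes was not tested; fewer samples enter each such fit. With 3 libraries a group, ratios to addition within the intervals given could not be told apart.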
